A study of Mus musculus with 8 samples.

Results

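Most of the genes described here make cholesterol from acetyl-CoA or control that synthesis through the sterol regulatory element-binding protein SREBP-2. Others carry or esterify cholesterol, remove lipoprotein receptors, or make a diphosphate that anchors proteins in membranes. All were chosen by symbol, with 29 genes named and 28 of them found among the 17041 genes of the deposited table. Hmgcs1 was not matched there and is not analysed here, and Sc4mol is the older symbol of Msmo1. All 28 passed the filter on low values, a mean normalized value of at least 10 over the 8 libraries. The tissue was proximal large intestine, and the mice were gnotobiotic ApoE knockout animals, a strain prone to atherosclerosis that lacks apolipoprotein E. Every animal was germ-free until a single gavage at 8 weeks of age and was dissected at 26 weeks. The 3 core libraries came from mice given a core community of gut bacteria that makes no butyrate. The 5 core plus R. intestinalis libraries came from mice given the same community with Roseburia intestinalis, a bacterium that produces butyrate. Replicate numbers follow the sample titles. The core sample names skip the lower numbers, so the 3 may not be every core sample made. Both groups carry the knockout and both are colonized, so there is no wild-type or germ-free reference. The sources used here do not name the diet, sex, isolator or hour of dissection, and mice of a group may have shared an isolator.

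Cholesterol synthesis starts in the cytosol, where acetyl-CoA units are joined into mevalonate, which is phosphorylated and decarboxylated to isoprene units. These are condensed to farnesyl diphosphate, then to squalene, which is closed to lanosterol and trimmed to cholesterol in the endoplasmic reticulum. When sterols run low there, the escort protein Scap carries SREBP-2 (encoded by Srebf2) to the Golgi apparatus, where the proteases Mbtps1 and Mbtps2 release its active part. Insig proteins hold the complex back when sterols are plentiful. The gut both makes and absorbs cholesterol.

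Promoter sequence is shown for the members with the smallest p-values that have a single window in the RefSeq table (build GRCm38.p6), to show the letters that this pathway's regulators are known to use. The windows are the 250 bases before the annotated start, chr8:122443423-122443672 on the minus strand (Mvd, mevalonate decarboxylase), chr10:76531355-76531604 on the plus strand (Lss, lanosterol synthase), chr5:114444019-114444268 on the plus strand (Mvk, mevalonate kinase) and chr15:82147019-82147268 on the plus strand (Srebf2). Capitals mark CCAAT or its complement ATTGG, known from NF-Y sites, GGGCGG or CCGCCC, known from Sp1 sites, and TCACNCCA, a shortened sterol regulatory element.
Mvd: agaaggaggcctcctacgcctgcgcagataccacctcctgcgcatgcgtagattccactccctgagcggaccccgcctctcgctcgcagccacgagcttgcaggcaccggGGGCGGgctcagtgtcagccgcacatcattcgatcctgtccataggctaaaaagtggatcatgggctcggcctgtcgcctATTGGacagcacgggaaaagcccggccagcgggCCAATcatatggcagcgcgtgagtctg
Lss: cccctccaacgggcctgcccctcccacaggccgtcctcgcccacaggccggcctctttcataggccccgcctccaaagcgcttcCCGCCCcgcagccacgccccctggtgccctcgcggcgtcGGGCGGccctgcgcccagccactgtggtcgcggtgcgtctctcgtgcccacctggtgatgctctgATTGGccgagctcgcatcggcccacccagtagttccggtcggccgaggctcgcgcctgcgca
Mvk: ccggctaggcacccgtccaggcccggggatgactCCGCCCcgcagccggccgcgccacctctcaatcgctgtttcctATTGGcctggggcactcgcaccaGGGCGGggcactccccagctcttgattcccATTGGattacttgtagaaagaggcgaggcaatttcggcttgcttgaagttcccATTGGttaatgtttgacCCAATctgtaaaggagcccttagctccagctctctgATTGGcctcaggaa
Srebf2: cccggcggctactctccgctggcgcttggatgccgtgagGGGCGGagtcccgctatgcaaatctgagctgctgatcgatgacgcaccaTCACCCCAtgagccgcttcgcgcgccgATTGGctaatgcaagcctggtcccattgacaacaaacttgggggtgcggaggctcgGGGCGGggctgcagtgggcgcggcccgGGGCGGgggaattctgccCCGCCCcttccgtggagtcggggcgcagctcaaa

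The Mvk window held 5 matches to CCAAT and 2 to GGGCGG, the Mvd window 2 and 1, the Lss window 1 and 2, and the Srebf2 window 1 and 4. Of the 28 members, 23 had 29 windows in the table. On either strand, CCAAT was present in 65.5% of those 29 windows and in 34.9% of the 13070 windows of genes tested here (33.8% of all 32851). GGGCGG was present in 75.9% of member windows, 55.7% of windows of tested genes and 32.7% of all windows. The longer letters TCACNCCAC were present in 0 of the 29 member windows and in 1.05% of all windows. With the last base left off, TCACNCCA was found in the windows of Sc4mol and Srebf2 and in 3.67% of all windows, a search added after the first gave no match. None of these motifs overlapped another in the 4 windows printed. A match of letters is not a shown binding site, and no binding was measured here.

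Values are the authors' normalized expression signal per gene and library, summarised as mean ± SD over the 3 libraries of the core group and the 5 of the other group. Differences are on the log2(value + 1) scale, core plus R. intestinalis minus core, tested with limma over all 13020 genes that passed the filter. Estimated depth ran from 4597893 to 15352045 reads per library, and among members the estimated reads behind a single value ran from 6 (Soat2) to 5765 (Fdft1). All fold changes here understate changes of low genes, which touches Soat2 most. No label ties each library to a separate mouse, so p-values measure only the spread between these libraries.

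Among the 28 genes, 22 had a higher mean log2 value with R. intestinalis and 6 a lower one, where 49.6% of all genes tested were higher. The median difference was 0.13, beside −0.0035 over all genes tested. No member passed the threshold of an adjusted p below 0.05 with limma, and neither did any other gene (0% of those tested). At an unadjusted p below 0.05, 1 member was higher and 0 were lower, where 4.44% of all genes were higher and 3.69% lower. By limma's voom on estimated reads the count past the threshold was also 0, with 1 member at an unadjusted p below 0.05 beside 7.16% of all genes. Groups did not overlap in 1 member, Soat2, which was higher, where 2.53% of all genes tested were higher without overlap and 3.31% lower (5.84% in either direction). The authors' deposited table gave no member a posterior probability of differential expression above 0.04. At a cutoff of 0.95 the authors' deposited table held 0 members and 0.481% of all genes, and at 0.90 it held 0 members and 0.616%.

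**Figure D1:**
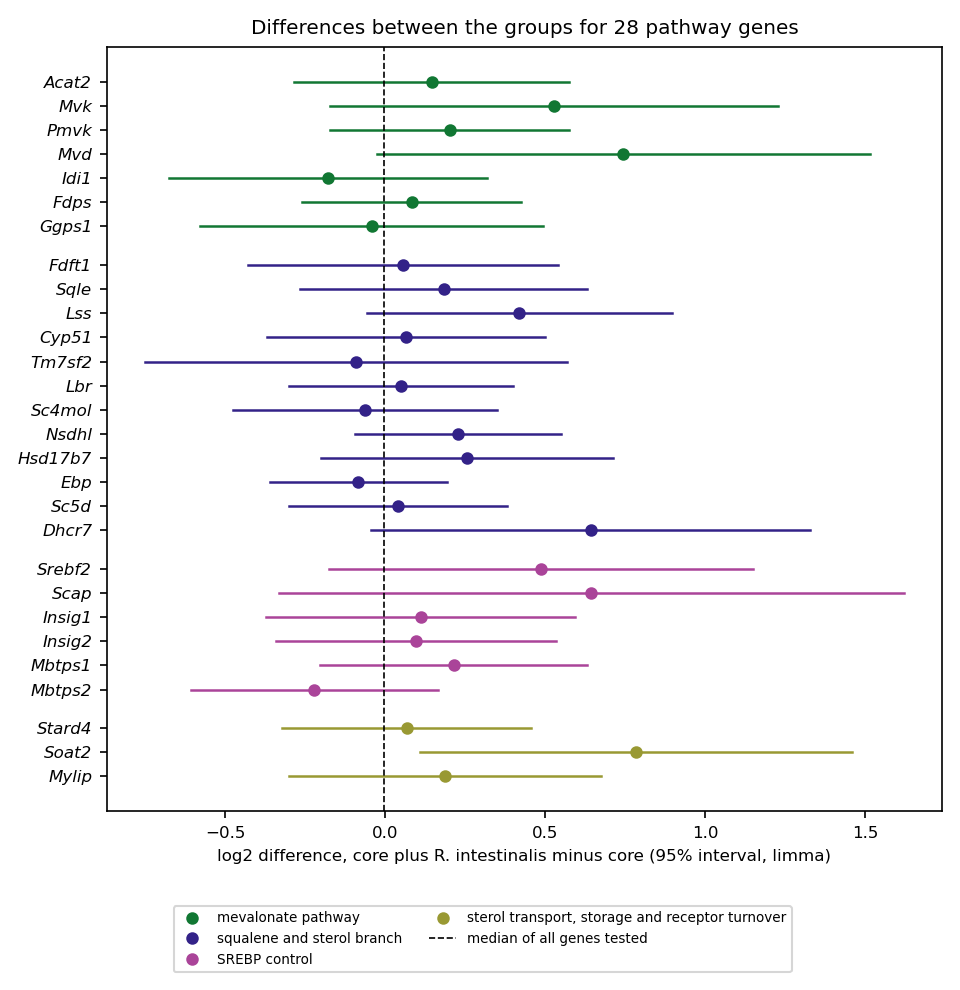
Log2 differences (dots, core plus R. intestinalis minus core) with limma's 95% intervals (lines) for 28 genes grouped by role. Dots of 22 genes lie above 0, and only the interval of Soat2 lies wholly above 0.

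The 7 mevalonate pathway genes found had a median difference of 0.15, with 5 above 0, 2 below and 0 past the threshold. Mvd, which decarboxylates mevalonate diphosphate, was at 98.4, 145 and 223 in core replicates 1 to 3. With R. intestinalis it was at 418, 194, 302, 144 and 259.5 in replicates 1 to 5. The groups overlapped, since replicate 4 with R. intestinalis lay below core replicates 2 and 3. Means were 155 ± 62.8 and 264 ± 105 (log2 difference 0.74, SE 0.348, limma adjusted p = 0.588), and the 95% interval ran from −0.03 to 1.51. Mvk, which adds the first phosphate to mevalonate, was nearly level in core at 92.1, 97.9 and 90.2. It was at 257, 86.3, 164, 97.95 and 125 with R. intestinalis, so replicate 1 was far above the rest and replicate 2 was the lowest of all 8. The log2 difference was 0.53 (SE 0.316, limma adjusted p = 0.606). The next kinase, Pmvk, averaged 366 ± 86.8 and 414 ± 40.0 (log2 difference 0.20).

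Acat2, the cytosolic thiolase that makes acetoacetyl-CoA and is not the sterol esterase of a similar name, averaged 360 ± 77.6 and 397 ± 69.9 (log2 difference 0.15). Its close relative Acat3 was listed at no more than 2.97 in any library, and how reads were split between them is not given. Idi1, the isomerase of the isoprene units, was at 2098, 1080.5 and 1764.5 in core and at 1228, 1447, 1907, 1172 and 1369.7 with R. intestinalis. Its core libraries spanned the whole range of the other group, and the log2 difference was −0.18 (95% interval −0.68 to 0.32). Fdps, farnesyl diphosphate synthase, averaged 1073 ± 233 and 1118 ± 73.0 (log2 difference 0.08). Ggps1, which makes the longer diphosphate used to anchor proteins in membranes, averaged 299 ± 51.6 and 299 ± 98.6.

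**Figure D2:**
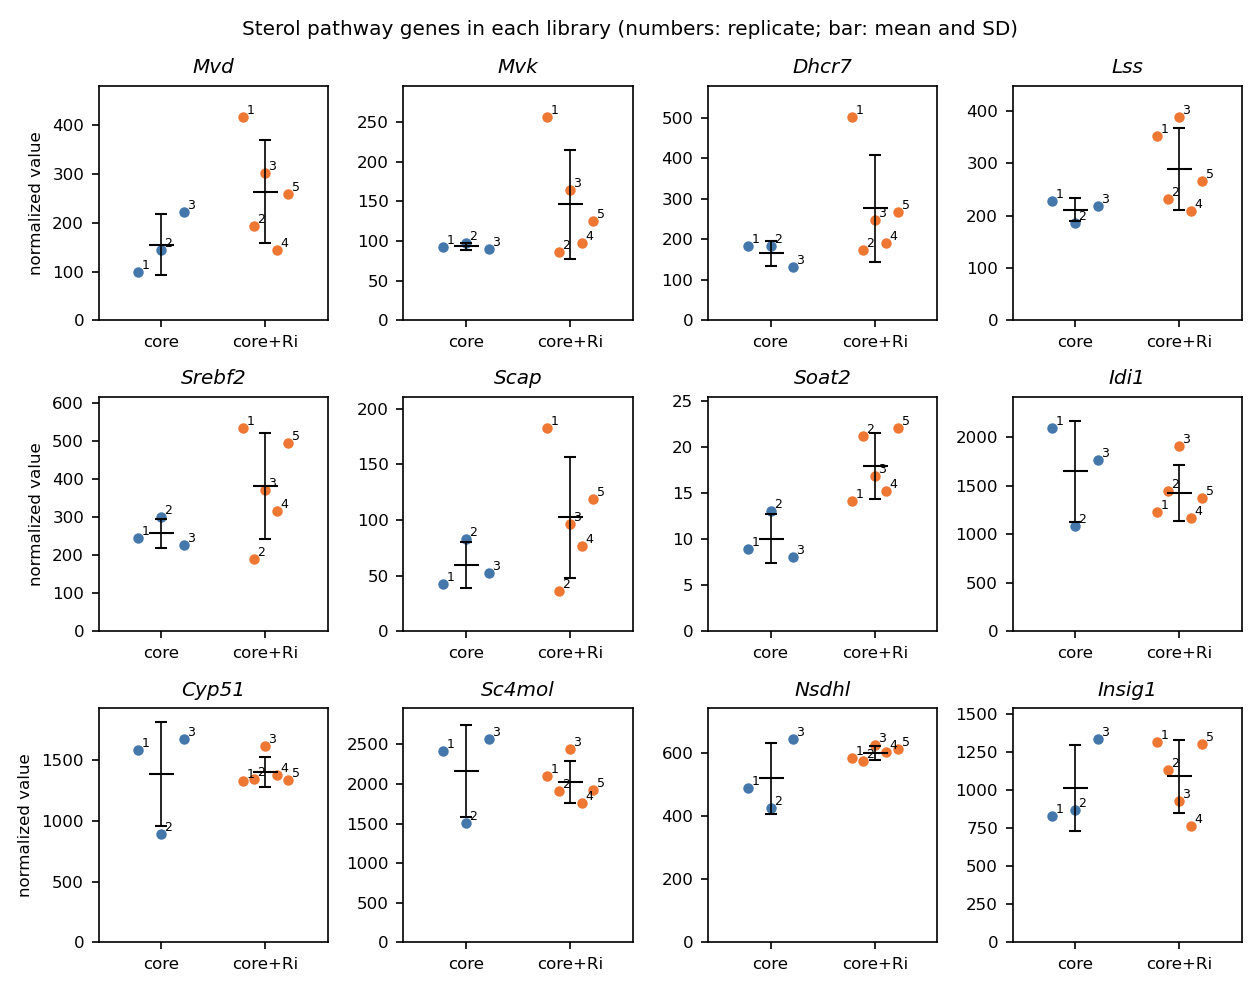
Normalized values of 12 pathway genes in each library (points, numbered by replicate) with the group mean and its SD as bars. The left group is core (3 libraries), the right one core plus R. intestinalis (5 libraries, written core+Ri). Soat2 is the panel whose groups do not overlap, and Mvk, Dhcr7 and Scap have their highest value, 257, 503 and 183, in core plus R. intestinalis replicate 1.

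The squalene and sterol branch, 12 enzymes, had a median difference of 0.06, with 9 above 0, 3 below and 0 past the threshold. Dhcr7, the reductase of the last step to cholesterol, was at 184, 183 and 131 in core and at 503, 175, 247, 191 and 267 with R. intestinalis. Only replicate 2 with R. intestinalis fell within the range of core, and replicate 1 stood far above the others. Means were 166 ± 30.5 and 277 ± 132 (log2 difference 0.64, SE 0.310, limma adjusted p = 0.588), and without replicate 1 the difference was 0.40. Lss, which closes squalene epoxide to lanosterol, was at 228, 186 and 218 in core. It was at 351, 232, 389, 209 and 266 with R. intestinalis, so 4 of those 5 lay above every core library. The log2 difference was 0.42 (SE 0.216, limma adjusted p = 0.588), with a 95% interval from −0.06 to 0.90.

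Sqle, squalene monooxygenase and a rate-limiting step of the branch, averaged 648 ± 58.4 and 752 ± 186 (log2 difference 0.18). Its lowest value, 519, and its highest, 955, both came from the group with R. intestinalis (replicates 4 and 3). Nsdhl, a sterol dehydrogenase, was at 489, 427 and 646 in core and between 574 and 626 (median 603) with R. intestinalis. The latter 5 libraries were close together, at 601 ± 21.3, while core spread from below them to above them at 521 ± 113. The log2 difference of Nsdhl was 0.23 (SE 0.145, limma adjusted p = 0.610). Hsd17b7, the ketoreductase that works beside Nsdhl, averaged 164 ± 43.6 and 193 ± 31.2 (log2 difference 0.26).

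Fdft1, squalene synthase, averaged 2292 ± 763 and 2325 ± 405 (log2 difference 0.06). Cyp51, the lanosterol demethylase, was at 1586, 894 and 1677 in core and at 1325, 1344, 1616, 1381 and 1335 with R. intestinalis (log2 difference 0.06). Core replicate 2 was lowest for Cyp51 and core replicate 3 highest, so the second group lay inside the first. Sc4mol, the methylsterol monooxygenase, had the same order at its ends, at 2414, 1501 and 2573 in core against 1756 to 2441 (median 1929) with R. intestinalis. Ebp, a sterol isomerase, averaged 1100.0 ± 144 and 1033 ± 64.7 (log2 difference −0.08), and Sc5d, a sterol desaturase, 783 ± 159 and 796.5 ± 74.5 (log2 difference 0.04). Tm7sf2 and Lbr, which encode enzymes for the same sterol reduction, had differences of −0.09 and 0.05. Tm7sf2 lay between 68.9 and 77.8 in core and between 41.0 and 119.5 (median 63.6) with R. intestinalis, while Lbr, also a protein of the nuclear envelope, averaged 309 ± 29.5 and 322 ± 47.8.

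The 6 SREBP control genes had a median difference of 0.16, with 5 above 0, 1 below and 0 past the threshold. Srebf2 itself was at 244, 301 and 228 in core and at 536, 191, 373, 318 and 495 with R. intestinalis. In the second group, 4 libraries were above all of core and replicate 2 was below all of core. Means were 258 ± 38.3 and 382.5 ± 139 (log2 difference 0.49, SE 0.299, limma adjusted p = 0.607). Scap, its escort, followed the same order of libraries at the ends, at 42.9, 83.0 and 52.8 in core and at 183, 36.7, 96.4, 76.7 and 119 with R. intestinalis. The log2 difference of Scap was 0.64 with the widest interval of the 28 genes, −0.33 to 1.62 (limma adjusted p = 0.618).

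Insig1, a retention protein whose own gene is a target of SREBP, was at 828, 870.5 and 1339 in core and at 1315, 1134.5, 928, 767 and 1304 with R. intestinalis. Its groups overlapped over most of their range (log2 difference 0.11, 95% interval −0.37 to 0.59). Insig2, the paralogue that is less dependent on SREBP, averaged 276 ± 56.8 and 295 ± 59.1 (log2 difference 0.10). The Golgi proteases differed in sign, with Mbtps1 at 496 ± 41.0 and 587.5 ± 144 (log2 difference 0.21) and Mbtps2 at 139.6 ± 12.1 and 120.3 ± 17.6 (−0.22). Both 95% intervals held 0, running from −0.21 to 0.63 for Mbtps1 and from −0.61 to 0.16 for Mbtps2.

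Of the 3 genes of sterol transport, storage and receptor turnover, Soat2 had the largest difference of all 28. Soat2 encodes the enzyme that esterifies cholesterol for storage and for lipoproteins in enterocytes and liver. It was at 8.94, 13.1 and 8.12 in core and at 14.2, 21.2, 16.9, 15.3 and 22.1 with R. intestinalis, so every library of the second group was above every core library. Means were 10.1 ± 2.68 and 18.0 ± 3.57 (fitted fold on the log2(value + 1) scale 1.72, log2 difference 0.78, SE 0.305, 95% interval 0.11 to 1.46, unadjusted p = 0.0271, limma adjusted p = 0.588). These values rest on 6 to 37 estimated reads, and the mean of 15.0 over all libraries lies close to the filter. Soat1, the broadly expressed isoenzyme, was between 167 and 294 in all 8 libraries. Stard4, a carrier of free cholesterol, averaged 784 ± 136 and 823 ± 142 (log2 difference 0.07). Mylip, the ubiquitin ligase that removes lipoprotein receptors and is induced through LXR, averaged 333 ± 76.5 and 383 ± 103 (log2 difference 0.19).

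Values of the pathway differed between libraries of one group. In core replicate 2, 12 of 28 members had their lowest value of the 8 libraries, among them 11 of the 19 enzymes found, where 8.29% of all genes tested were lowest in that library. The 12 were Acat2, Pmvk, Idi1, Fdps, Fdft1, Lss, Cyp51, Sc4mol, Nsdhl, Ebp, Sc5d and Insig2. Core replicate 3 held the highest value of 8 members, against 12.6% of all genes. The number of members above their own median over the libraries was 9, 4 and 20 in core replicates 1 to 3 and 14, 13, 24, 11 and 17 in core plus R. intestinalis replicates 1 to 5. Without core replicate 2 the median difference of the 28 genes was 0.02 and 15 were above 0, and without core replicate 3 it was 0.25 with 23 above 0. Relative variation (SD over mean) was larger in core for 16 members and larger with R. intestinalis for 12.

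**Figure D3:**
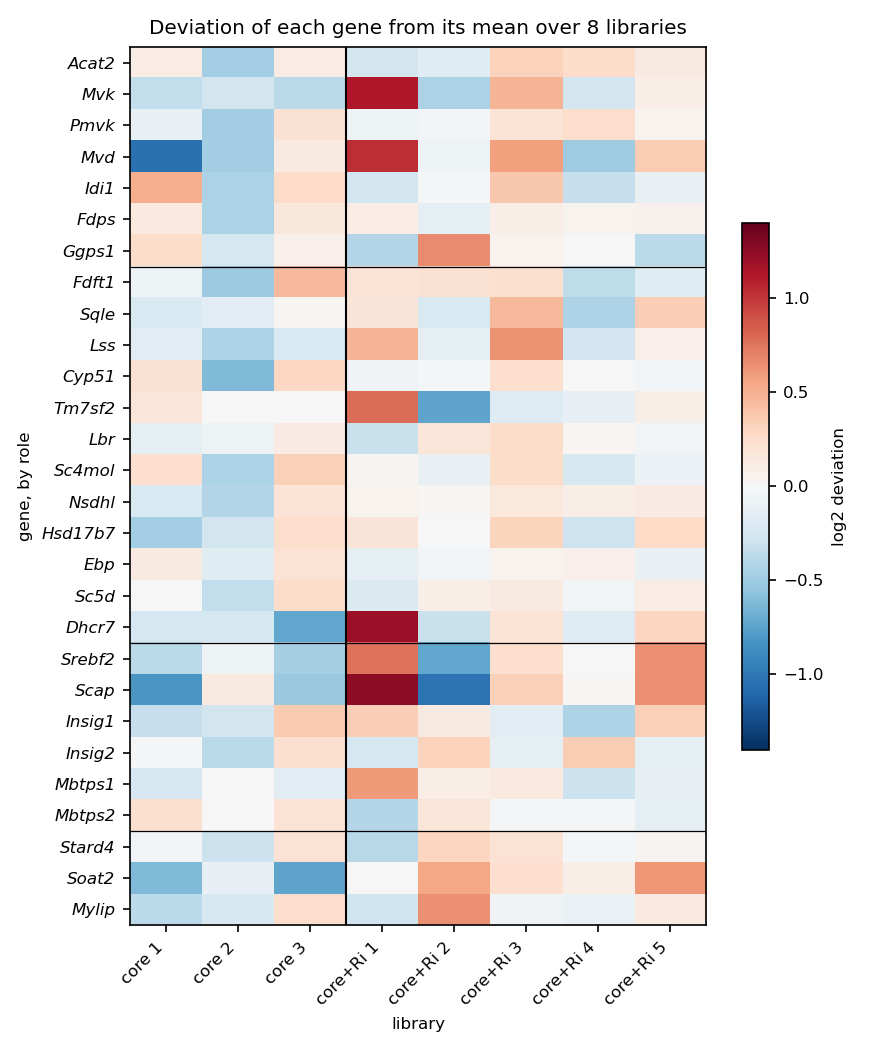
Log2 deviation of each gene from its mean over the 8 libraries (colour, red above and blue below), with genes in rows by role and libraries in columns (core+Ri: core plus R. intestinalis). Core replicate 2 is mostly blue among the enzymes, with 12 of the 28 genes at their lowest there, and core plus R. intestinalis replicate 1 holds the highest value of 7 genes (28.1% of all genes tested were highest there).

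The 7 members highest in core plus R. intestinalis replicate 1 were Mvk, Mvd, Tm7sf2, Dhcr7, Srebf2, Scap and Mbtps1, with transcript GC contents from 52.4% to 59.6%. Over all genes tested, 28.1% were highest and 25.1% lowest in that library, so neither count sets the members apart. The 4 members lowest in that library, Ggps1, Lbr, Mbtps2 and Stard4, had GC contents from 40.0% to 44.2%. Over 12858 genes, the deviation of this library from the mean of all 8 went up by 0.56 log2 units per 10 points of GC content. The same slope was −0.30, 0.07 and −0.29 in core replicates 1 to 3 and −0.32, 0.04, 0.01 and 0.22 in core plus R. intestinalis replicates 2 to 5. Across the 28 genes the group difference and GC content had a Pearson r of 0.69 and a Spearman rho of 0.65, and over all genes 0.46 and 0.50. These are descriptions across genes that share the same libraries. Members with a GC content of at least 55% (7 genes) had a median difference of 0.53, where all 2986 genes in that range had 0.30. Members under 45% (7 genes) had 0.04, where all 3059 such genes had −0.17.

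After a correction for GC content, chosen after seeing the data, r across the members was 0.09, and 22 of 28 were above 0 with a median of 0.18. Of all 12858 genes in that fit, 6429 were above 0, with a median of 5.4e-06. The correction removes the trend with GC content over all genes, so a low r was built in. Soat2 then had a difference of 0.60 and its groups overlapped. The differences of Mvd, Mvk, Srebf2 and Scap were 0.41, 0.18, 0.19 and 0.31 after this correction, and that of Dhcr7 was 0.56. Nsdhl was the member with the smallest p after it, at a difference of 0.33 (limma unadjusted p = 0.0351, adjusted p = 0.552). In the uncorrected fit without core plus R. intestinalis replicate 1 the differences were 0.56 (Mvd), 0.30 (Mvk), 0.34 (Srebf2), 0.39 (Scap) and 0.86 (Soat2).

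**Figure D4:**
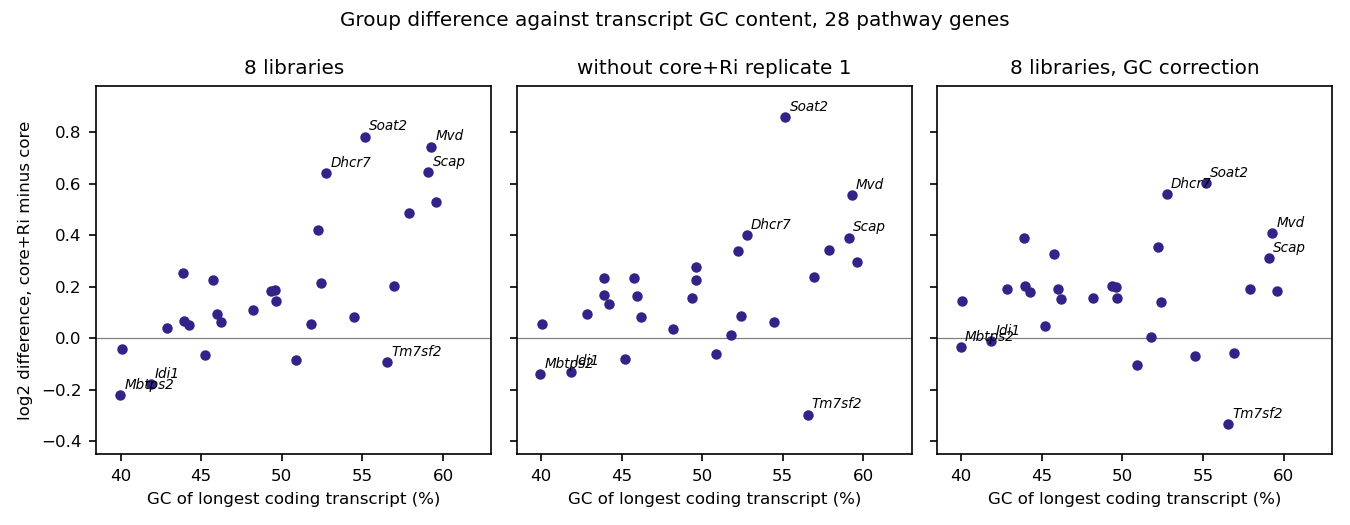
Log2 difference (core plus R. intestinalis minus core) of 28 genes against the GC content of their longest coding transcript, with all libraries, without core plus R. intestinalis replicate 1 (core+Ri replicate 1), and after a GC correction. Pearson's r across these genes is 0.69, 0.47 and 0.09 in the 3 panels. The correction is built to remove the trend with GC content.

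Epithelial markers were high in every library, with Lgals4 between 30435 and 41614 and Krt8 between 25425 and 37277. The summed level of 12 epithelial markers was between 109160 and 126370 in core and between 108930 and 139120 with R. intestinalis. Of these 12, 10 had a higher mean with R. intestinalis (median difference 0.21), with median GC content 56.4%. Smooth muscle markers (8 genes) summed to 128820 to 178360 in core and 86687 to 154240 with R. intestinalis, and fibroblast markers (8 genes) to 8137.5 to 9334.8 and 4819.6 to 7221.6, with no overlap. Adipocyte markers (7 genes) summed to 1331.7 to 3512.3 in core and 246.7 to 1820.1 with R. intestinalis, and all 6 that were tested had a lower mean log2 value (median difference −1.83). Of 8 markers of enteric neurons and glia, 7 were lower (median −0.32). All 5 small intestinal markers tested were higher (median 1.33), with summed levels of 113.93 to 1300.2 in core and 267.21 to 2780.7 in the other group. Leukocyte markers (8 genes) summed to 2433.8 to 3118.6 and 1036.2 to 3774. The ileal marker Slc10a2 ran from 13.9 to 949 and the distal colon marker Hoxb13 from 2.16 to 663 over the 8 libraries. B4galnt2, of the same distal colon list, ran from 4380 to 15476. It was highest in core plus R. intestinalis replicate 2, where Hoxb13 was lowest. Of the liver markers, Ttr lay between 46.4 and 207 and Alb between 10.2 and 46.6, and Cyp7a1 and Fgb were listed at 0 in at least 1 library. Core replicate 2, where 12 members were lowest, had the highest sums of smooth muscle (178360), endothelial (1077.3) and enteric neuron and glia markers (1258.8). Its epithelial sum of 109160 was the lowest of core, with 108930 in core plus R. intestinalis replicate 2. Its fibroblast and adipocyte sums were not the highest. When each library was rescaled by its epithelial markers, the median of all genes moved to −0.24 and that of the members to −0.11. Above 0 were then 8 of the 28 members and 3336 of the 13044 genes tested. Rescaling divides all genes of a library by the same factor, so the members' place beside all genes was nearly fixed in advance. Of the 28 members, 14 had the opposite sign after rescaling, which moved all genes downward. The part of tissue composition or gut position in the differences between groups or between libraries was not tested. A change in cell number and a change in RNA per cell cannot be told apart in tissue RNA.

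Other genes of the pathway, from lists fixed beside the members, gave 0 past the threshold of the 63 tested. Of 13 other sterol and isoprenoid enzymes, 8 were above 0 (median 0.23). Among them were Rabggta (0.35), of protein prenylation, and Rce1 (0.32), of the processing that follows it. Of 13 tested genes of SREBP regulation and sterol-dependent degradation, 9 were above 0 (median 0.02). Srebf1, which encodes the SREBP forms that favour fatty acid genes, averaged 76.5 ± 16.8 and 125 ± 60.5 (log2 difference 0.62), its highest value being 230.3 in replicate 1 of the second group. Aup1, of the degradation machinery in the endoplasmic reticulum, averaged 431.5 ± 73.5 and 686 ± 308, and the ubiquitin ligase Rnf139 299 ± 49.4 and 246 ± 41.8.

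Fatty acid targets of SREBP had 10 of 13 genes above 0 (median 0.11). Acaca, acetyl-CoA carboxylase, was at 187, 253 and 278 in core and at 380.0, 358, 384, 341 and 316 with R. intestinalis, with no overlap. Its log2 difference was 0.58 (unadjusted p = 0.00380, limma adjusted p = 0.588) at a GC content of 49.1%. Fasn, fatty acid synthase, averaged 270.5 ± 41.2 and 482 ± 248, its highest value being 910.1 in core plus R. intestinalis replicate 1. The desaturase Scd2 averaged 1555 ± 361 and 1962 ± 386. Intracellular cholesterol transport and storage had 11 of 15 genes above 0 (median 0.33). Stard3, a late endosomal sterol carrier, averaged 243 ± 41.6 and 329 ± 51.6 (log2 difference 0.44), and Gramd1b, a sterol carrier between membranes, 51.3 ± 5.83 and 73.7 ± 14.0 without overlap (0.50). Lipa, the lysosomal cholesteryl ester hydrolase, averaged 330.1 ± 28.6 and 417 ± 57.5 (log2 difference 0.33). Among LXR and oxysterol genes 6 of 9 were above 0 (median 0.25). Nr1h2, the LXR-beta receptor, averaged 351 ± 78.9 and 479.8 ± 117, and the oxysterol enzyme Cyp27a1 228 ± 27.2 and 318 ± 89.5. Rxrb, a partner receptor of LXR, had a difference of 0.54.

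The intervals show what 3 and 5 libraries could resolve. For 13 of the 28 members the 95% interval lay within a 1.5-fold difference either way, Fdps, Ebp and Sc5d among them. For 12 members it reached 1.5-fold or more upward. For Idi1, Tm7sf2 and Mbtps2 it reached 1.5-fold or more downward, with lower ends at a fold of 0.63, 0.59 and 0.66. A difference of that size thus lay inside those intervals.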

How the data were processed

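RNA from the proximal large intestine was measured in 3 core and 5 core plus R. intestinalis libraries. The deposited table holds 1 normalized expression signal per gene and library, made by the authors with Bowtie2 and RSEM 1.2.23 on mouse build mm9, per the submitters' processing notes. How values were normalized is not given in the sources used here, nor is the annotation. The authors' deposited table also gives a posterior probability of differential expression, a score from 0 to 1, and fold changes as a linear ratio. The ratio of group means was within 2% or 0.01 of the authors' deposited raw fold for 100% of the genes whose mean in core reached 10.

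Genes with a mean of at least 10 (13020 of 17041) were tested on log2(value + 1) with limma 3.58.1 (mean-variance trend, R 4.3.3) and Benjamini-Hochberg adjustment over all of them. The planned test assumed no counts, and none were deposited in the files used here. Depth was estimated from the steps between low values. On those steps, within 0.05, lay 79.9% to 84.5% of values under 30, so whole reads were not assumed. A value of 50 stood for 31.4 to 109 estimated reads, and this is counting error only. GC content, from the longest coding transcript of a GENCODE annotation, was available for 98.4% of genes. Where GC correction was used, a lowess curve (span 0.3) was taken from each library.

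All 28 members found were named. From each other pathway list, up to 3 tested genes with the smallest p were named (1 gene chosen this way is not reported here), and from each marker list up to 2 genes with the highest mean. Members and lists were chosen with earlier results of these data known. Alternatives covered scaling, filter, pseudocount, block, library weights and each library left out. The test was checked on simulated data.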

Additional observations from a re-analysis of the deposited data

Results flagged for a closer look

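Among 28 groups of 5 libraries, 1 per gene, 3 had a library far from the other 4 on the normalized values, not their log2. Chance gives about 1 in 20 for a single group, but these groups share the same 5 libraries. Dhcr7 was at 503.44 in core plus R. intestinalis replicate 1, with the others between 174.69 and 267.14 (gap over range 0.719). Cyp51 was at 1616.11 in replicate 3, with the others between 1324.8 and 1380.7 (0.808). Fdps was at 991.53 in replicate 2, with the others between 1129.4 and 1171.8 (0.765).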

How the results depend on the processing

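No member passed the threshold under any of the 22 alternatives. The lowest adjusted p of a member, 0.0534, came with limma's library weights, which gave core plus R. intestinalis replicate 3 a weight of 7.98 and called 455 genes. Without that library the weighted fit called 0. Leaving out 1 library gave 0 to 1 genes past the threshold, the 1 being Rangrf without core replicate 1 (log2 difference 7.55, limma adjusted p = 2.83e-06), a gene named after its values were seen. It gave a members' median of 0.02 to 0.25, 15 to 23 members above 0, and 1 to 5 members without overlap (4 and 3 without replicates 2 and 3 of core, 5 and 2 without replicates 2 and 4 of the other group). In the same order, 19.8%, 13.5%, 13.0% and 10.2% of all genes did not overlap. Epithelial rescaling gave a median of −0.11, 8 members above 0 (3336 of 13044 genes tested) and 0 without overlap (3.89% of all genes). The count without overlap was also 0 (6.01% of all genes) with a mean of at least 50, a filter that removes Soat2. It was 0 after GC correction (5.72% of all genes), and 3 after GC correction without core plus R. intestinalis replicate 1 (7.91% of all genes). Apart from that filter, the cause was not tested. Of 615 values of single genes recomputed, 568 had the same sign and 47 the opposite one. Dhcr7, Ebp, Hsd17b7, Lss, Mbtps2, Mvd, Mvk, Scap, Soat2 and Srebf2 had the same sign under every alternative that gave them a value (21 for Soat2, 22 for the others).

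Signs were opposite with epithelial rescaling for Acat2 (−0.096), Pmvk (−0.041), Fdps (−0.16), Fdft1 (−0.19), Sqle (−0.060), Cyp51 (−0.18), Lbr (−0.19), Nsdhl (−0.016), Sc5d (−0.20), Insig1 (−0.13), Insig2 (−0.15), Mbtps1 (−0.029), Stard4 (−0.18) and Mylip (−0.055). With GC correction they were opposite for Pmvk (−0.059), Fdps (−0.068), Ggps1 (0.14) and Sc4mol (0.048), and with that correction and without core plus R. intestinalis replicate 1 for Fdps (−0.010) and Ggps1 (0.16). With library weights they were opposite for Sc4mol (0.031) and Insig2 (−0.053), and with weights without replicate 3 for Fdps (−0.019), Fdft1 (−0.15), Sqle (−0.041), Cyp51 (−0.091) and Sc5d (−0.014). GC correction and the settings that combine it or the weights with a left-out library were chosen after seeing the data. Without 1 library the differences ran from −0.047 to 0.24 (Acat2), −0.22 to 0.23 (Cyp51), −0.18 to 0.30 (Fdft1), −0.11 to 0.19 (Fdps), −0.21 to 0.072 (Ggps1), −0.46 to 0.023 (Idi1), −0.016 to 0.33 (Insig1), −0.063 to 0.24 (Insig2), −0.011 to 0.13 (Lbr), −0.31 to 0.081 (Sc4mol), −0.12 to 0.18 (Sc5d), −0.060 to 0.19 (Stard4) and −0.30 to 0.084 (Tm7sf2).

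Replicate numbers here are those of the sample titles, and in core the sample names carry other numbers. Pairing by the numbers in the sample names was not tested. Deviations of libraries with the same replicate number had correlations of −0.12, −0.53 and −0.07, and 0 of 3 core libraries correlated best with their own number. So few correlations cannot exclude a shared batch. A replicate block gave 0 genes past the threshold and 2 members at an unadjusted p below 0.05 (3.03% of all genes). The members' median was then 0.16, beside −0.0073 over all genes. Above 0 were 24 members, with Ggps1 at 0.071 and Sc4mol at 0.023, and 6426 of the 13020 genes tested. Depth limits Soat2 most, at 6 to 37 estimated reads per library.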
